A study of Mus musculus and Rattus norvegicus with 24 samples.

Results

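Potassium channel genes were followed in ischaemic brain tissue of 2 rodent species. The members were all genes whose platform symbol begins with Kcn. A member had to have a transcript cluster of its own, meaning a probe group assigned to a single symbol, and the brightest cluster stood for the symbol where there were several. This gave 90 genes of 22180 tested in mouse and 87 of 18166 in rat, and 84 symbols were measured in both. The rule uses the symbol alone and no measured difference between groups. Another 4 mouse clusters that list a Kcn symbol together with a second gene were left out.

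RNA was measured on whole-transcript arrays in 24 animals, 1 array each, with 3 animals in each of 8 groups. The mice were adult male C57BL/6 aged 8 to 10 weeks and the rats adult male Sprague-Dawley aged 8 to 12 weeks, with no genetic modification named. In pMCAO animals a filament was tied in place at the origin of the middle cerebral artery, on the right in mice and on the left in rats, under isoflurane. Sham animals had the same isoflurane anaesthesia and procedure without the occlusion. Tissue of 3 by 3 mm was cut from the penumbra (the rim of the ischaemic core) 2 h or 6 h after surgery, and in shams from the like region of the operated side. Each array is a separate animal, so the errors below measure differences between animals.

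Potassium channels let potassium leave the cell along its gradient and so set the resting potential, end action potentials and limit firing. The voltage-gated family (Kv) is built from pore subunits, modified by silent subunits that do not form channels alone and by auxiliary proteins, while inward rectifiers and two-pore channels carry resting currents and other channels open to intracellular calcium or sodium. In the ischaemic rim, energy failure and repeated spreading depolarisations raise extracellular potassium, which glial inward rectifiers and sodium-potassium pumps normally clear.

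All values are on the log2 scale as deposited, so that a difference of 1 is a doubling, and levels of different genes or of the same gene at the different times were not compared because array medians differed between the times. Array medians in mouse lay between 6.03 and 6.06 at 2 h and between 5.92 and 5.96 at 6 h, and in rat between 6.67 and 6.75 and between 5.82 and 5.87. Among the rats of 2 h, pMCAO animal 2 stood apart on the leading principal component, at -25.9 where the other pMCAO animals were at -1.63 and -2.33. Of the neuronal markers 6 of 6 were measured in both species, with per-animal means of 11.25 to 11.31 in mouse and 11.66 to 11.75 in rat at 2 h, and of 10.88 to 11.04 and 10.99 to 11.08 at 6 h. In bulk tissue, fewer cells of a type and less RNA per cell cannot be told apart. Of the members, 4 mouse genes (Kcnj1, Kcnu1, Kcnrg and Kcnv2) and 8 rat genes lay in the lowest 25% of gene means. No member was left out for a low value.

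At 2 h the inward rectifier gene Kcnj2 rose in mouse, and no other member passed in either species. In mouse at 6 h 10 members fell, among them the M-current gene Kcnq3, the Kv3 gene Kcnc2 and the Kv4 partner gene Kcnip2, by 0.43 to 0.57. In rat at 6 h 4 members changed, with the largest rise, of 0.77, in the silent subunit gene Kcnf1. These counts do not by themselves set the species apart, since a direct test of the species difference at 6 h passed for 2 of 84 shared members (2.38%, against 2.27% of matched genes). A gene is said to rise or fall where limma's adjusted p (Benjamini-Hochberg over all genes of the species) was under 0.05. Of the 90 mouse members, 1 rose and 0 fell at 2 h, where 0.149% of all genes tested passed in each direction (0.298% in all). By 6 h 2 mouse members had risen, where 3.21% of all genes rose, and 10 had fallen, 11.1% of members against 4.23% of all genes (7.43% of all genes changed). Of the 87 rat members, 0 passed limma's adjusted threshold at 2 h, against 0.0661% of all genes (0.0330% in each direction). By 6 h 2 rat members had risen and 2 had fallen, which is 2.30% in each direction against 2.85% of all genes rising and 3.62% falling (6.47% changed). The rat shares were near the background, and the mouse share of falls at 6 h was above it. The 12 mouse calls at 6 h became 5 without pMCAO animal 3 or sham animal 3 and 6 without sham animal 1 or 2. The 4 rat calls at 6 h became 8 without pMCAO animal 2, 1 without sham animal 2 and 2 without any one of the others. Shares of all genes in these smaller fits are not given here, so the counts cannot be set against a background.

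At an unadjusted p under 0.05, 5 mouse members were higher at 2 h (background 3.84%) and 3 lower (3.88%), 8 in all against 7.71%. By 6 h 5 mouse members were higher (10.0%) and 20 lower (13.3%), 25 in all against 23.3%. Of the rat members 4 were higher at 2 h (3.32%) and 5 lower (3.77%), 9 in all against 7.08%. By 6 h 12 rat members were higher (8.96%) and 10 lower (13.1%), 22 in all against 22.1%.

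The members as a whole had medians near those of all genes. Their median difference at 6 h was -0.01 in mouse and 0.01 in rat, beside -0.02 over all genes in each species. The median size of a difference at 6 h, regardless of sign, was 0.12 in mouse members and 0.11 in rat members, against 0.11 and 0.12 over all genes. In mouse 7 members had all pMCAO animals below all shams at 2 h (7.78% against 8.39% of all genes) and 8 had all above (8.89% against 6.24%). By 6 h 16 were below (17.8% against 14.6%) and 10 above (11.1% against 10.7%). The rat counts were 9 below (10.3% against 7.57%) and 4 above (4.60% against 5.54%) at 2 h, then 13 below (14.9% against 14.8%) and 11 above (12.6% against 9.73%) at 6 h. The groups were apart at both times in opposite directions for 2 mouse members (2.22% against 1.21% of all genes) and 1 rat member (1.15% against 0.776%). In the plot of differences by subfamily, the mouse falls were spread over voltage-gated pore, silent Kv, Kcnq, Kcnh, auxiliary, inward rectifier and sodium-activated genes.

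**Figure D1:**
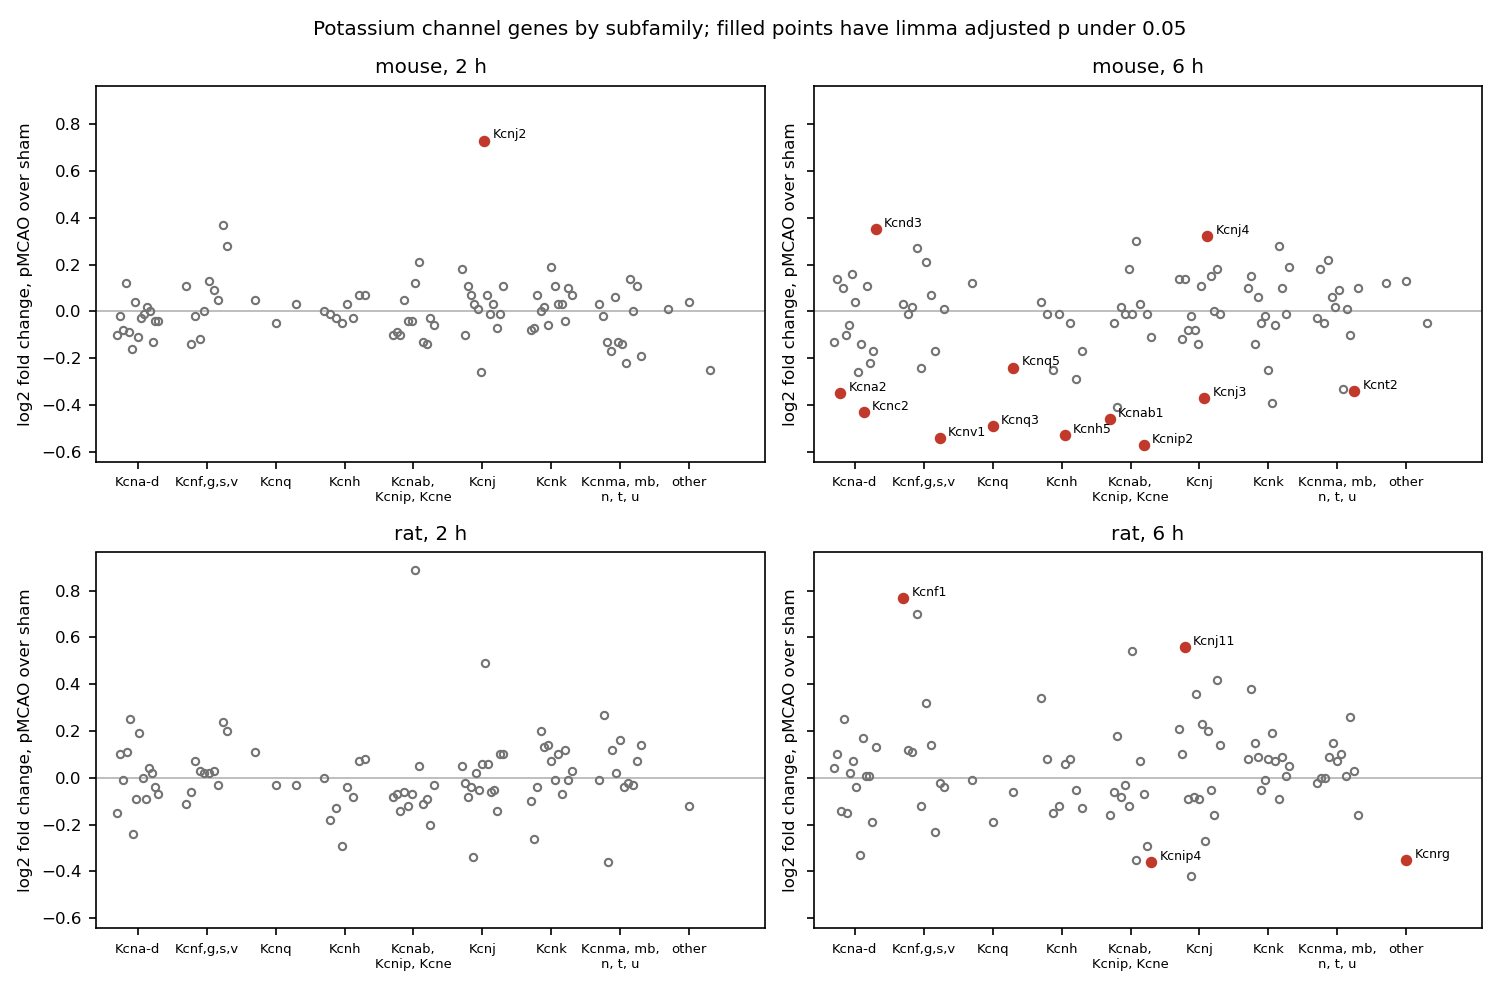
Each point is a member gene, placed by subfamily, with its log2 difference between pMCAO and sham on the vertical axis, in 4 panels for the species and times. Filled points passed an adjusted p of 0.05. The mouse panels hold 1 filled point at 2 h and 12 at 6 h, 10 of them below 0, and the rat panels hold none at 2 h and 4 at 6 h.

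Of the inward rectifiers (Kcnj, 14 genes in mouse and 15 in rat), mouse had 1 rise at 2 h and 1 rise and 1 fall at 6 h, and rat had 1 rise at 6 h. Kcnj2 encodes Kir2.1, a strong inward rectifier that holds the resting potential of neurons, microglia and vessel cells. In mouse at 2 h its values were 7.31, 7.33 and 7.69 after pMCAO and 6.67, 6.70 and 6.77 in shams. All occluded mice lay above all shams, a rise of 0.73 ± 0.12 (SE, n = 3 against 3, limma adjusted p = 0.0309), or 1.66-fold. Leaving out any single array of the comparison other than pMCAO animal 1 ended this call, with adjusted p from 0.0495 to 0.127 over the 6 omissions. At 6 h the mouse groups overlapped, at 7.08, 6.88 and 6.98 after pMCAO and 6.72, 7.11 and 6.79 in shams, and the difference was 0.11 ± 0.12. In rat at 2 h Kcnj2 read 7.18, 7.63 and 7.31 after pMCAO and 6.93, 6.98 and 6.75 in shams. The rat groups were also apart, but the difference of 0.49 ± 0.14 did not pass (limma adjusted p = 0.395), and it was 0.36 without the pMCAO animal that stood apart.

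Promoters are shown for the 3 mouse members that rose, Kcnj2, Kcnd3 and Kcnj4, so that the letters searched for motifs of stress-responsive transcription factors can be seen. They are from RefSeq, build GRCm38.p6, and run from 250 bases before to 50 bases after the transcript start, on the gene's own strand, 5′ to 3′. Capitals mark the match to a searched motif, and a sequence without capitals has no match.
Kcnj2 (chr11:111065914-111066213, plus strand): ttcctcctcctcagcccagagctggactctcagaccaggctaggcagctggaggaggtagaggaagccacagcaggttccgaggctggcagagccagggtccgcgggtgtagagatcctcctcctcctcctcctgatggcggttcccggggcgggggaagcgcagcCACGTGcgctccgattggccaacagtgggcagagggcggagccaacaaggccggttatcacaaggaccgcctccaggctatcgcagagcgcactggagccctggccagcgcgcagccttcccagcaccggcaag
Kcnd3 (chr3:105451640-105451939, plus strand): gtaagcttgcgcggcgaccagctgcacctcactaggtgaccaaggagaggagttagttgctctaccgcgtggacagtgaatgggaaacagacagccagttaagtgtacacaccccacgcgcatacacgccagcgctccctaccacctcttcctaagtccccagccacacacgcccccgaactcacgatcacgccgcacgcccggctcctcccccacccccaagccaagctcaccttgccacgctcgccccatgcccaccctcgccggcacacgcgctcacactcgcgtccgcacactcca
Kcnj4 (chr15:79505192-79505491, minus strand): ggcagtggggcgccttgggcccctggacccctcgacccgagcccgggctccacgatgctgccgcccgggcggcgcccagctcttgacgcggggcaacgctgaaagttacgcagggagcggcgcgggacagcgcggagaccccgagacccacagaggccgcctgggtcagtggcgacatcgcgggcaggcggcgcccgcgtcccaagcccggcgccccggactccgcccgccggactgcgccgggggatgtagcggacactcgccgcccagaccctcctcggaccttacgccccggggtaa

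The motifs searched on both strands were the cyclic AMP response element TGACGTCA, the AP-1 motif TGANTCA, the hypoxia response core ACGTG, the heat shock pair GAANNTTC and the serum response CArG box. The Kcnj2 promoter holds CACGTG, which matches the hypoxia core on both strands at the same place and begins 84 bases before the start (position -84). That core is common, in 19.6% of the 32851 promoters searched and in 16 of the 95 promoters (16.8%) of 70 Kcn genes. Of the 13 mouse members that changed, 11 had 17 promoters in the table, and the only other matches were the same CACGTG in promoters 2 and 3 of the 3 of Kcnab1, a gene that fell. The cyclic AMP element was in 0 of 95 Kcn promoters against 1.79% of all, the CArG box in 0 against 1.63%, the AP-1 motif in 4.21% against 7.81% and the heat shock pair in 7.37% against 7.86%. These matches describe the letters in the window and no binding was measured.

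Of the remaining inward rectifiers in mouse at 6 h, Kcnj4 rose and Kcnj3 fell. Kcnj4, the Kir2.3 gene of forebrain neurons, read 8.01, 7.92 and 8.01 after pMCAO in mouse at 6 h and 7.78, 7.56 and 7.65 in shams. All occluded animals were above all shams, a rise of 0.32 ± 0.07 (limma adjusted p = 0.0213). The call was lost without pMCAO animal 1 or 3 or sham animal 2 or 3, with adjusted p up to 0.071. In rat its difference was 0.20 ± 0.10. Kcnj3 encodes GIRK1, a channel opened by G proteins downstream of inhibitory transmitter receptors. Its mouse values at 6 h were 9.35, 9.31 and 9.19 against 9.64, 9.66 and 9.66 in shams. The groups were apart and Kcnj3 fell by 0.37 ± 0.07 (limma adjusted p = 0.0106), a call kept whichever array was left out. A second, dimmer mouse cluster of Kcnj3 gave -0.29, and in rat at 6 h the difference was -0.27 ± 0.08 with an adjusted p of 0.0545 and groups that were also apart. The other GIRK genes did not pass in either species at 6 h, with Kcnj6 at 0.00 and -0.16, Kcnj9 at -0.01 and 0.14, and Kcnj5 at 0.15 and -0.05 in mouse and rat.

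Kcnj11, the pore of the ATP-sensitive channel that opens when cellular energy falls, rose in rat at 6 h. It read 6.99, 7.07 and 7.44 after pMCAO and 6.81, 6.37 and 6.65 in sham rats. All occluded rats were above all shams, by 0.56 ± 0.14 (limma adjusted p = 0.033), or 1.47-fold. The call was lost without pMCAO animal 3, sham animal 2 or sham animal 3, with adjusted p from 0.0349 to 0.128. In mouse the difference was 0.14 ± 0.08 with overlapping groups, and the species difference was not past its threshold. The other ATP-sensitive pore gene, Kcnj8, which is expressed in pericytes and smooth muscle, differed by 0.42 ± 0.13 in rat at 6 h (adjusted p = 0.0848), and by 0.18 ± 0.11 in mouse. The regulatory subunits of these channels, the sulfonylurea receptors Abcc8 and Abcc9, differed by 0.19 and -0.02 in rat at 6 h and by 0.02 and 0.03 in mouse, and neither passed.

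Glial Kcnj10, the Kir4.1 gene of astrocytes that takes up extracellular potassium, did not pass in any comparison. Its differences were -0.10 and -0.12 in mouse and -0.02 and 0.10 in rat at 2 h and 6 h. Its partner Kcnj16 differed by -0.26 (adjusted p = 0.488) and -0.14 in mouse and by 0.06 and -0.09 in rat. Kcnj13, the Kir7.1 gene of choroid plexus, was measured in rat only and differed by -0.34 and -0.42 ± 0.35 without passing. At 6 h all occluded rats lay below all shams, at 5.22, 5.26 and 5.25 against 5.48, 6.0 and 5.51. The error is shared over the 12 rat arrays, of which the 2 h shams spread most (SD 0.94). At 2 h sham animal 3 was the highest rat for Kcnj13, at 7.93, and also the highest in choroid plexus markers (6 of 6 measured). Their per-animal means were 5.83 to 7.34 in shams and 5.87 to 6.76 after pMCAO. At 6 h these means were 4.80 to 5.06 in shams and 5.09 to 5.30 after pMCAO, and their part in the Kcnj13 values was not tested.

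Among the voltage-gated pore genes (Kcna, Kcnb, Kcnc and Kcnd, 15 in mouse and 14 in rat), 2 fell and 1 rose in mouse at 6 h and 0 changed in rat at either time. At an unadjusted p under 0.05 the counts were 5 lower and 1 higher in mouse at 6 h, 1 lower and 1 higher in rat at 2 h, and 2 lower and 2 higher in rat at 6 h. Kcnc2 encodes Kv3.2, which allows interneurons to fire fast. In mouse at 6 h it read 7.94, 7.76 and 7.93 after pMCAO and 8.30, 8.35 and 8.27 in shams. The groups did not overlap and Kcnc2 fell by 0.43 ± 0.07 (limma adjusted p = 0.00832), which held whichever array was left out. The rat difference at 6 h was 0.01 ± 0.07 with overlapping groups. Kcnc1, the Kv3.1 gene of the same fast-spiking cells, differed by -0.14 ± 0.09 in mouse and 0.17 ± 0.07 in rat, neither past the threshold. The interneuron marker list (5 of 5 measured) had per-animal means of 8.64 to 8.68 after pMCAO and 8.75 to 8.76 in sham mice at 6 h, with a median difference of -0.04. Of its members 1 fell, the parvalbumin gene Pvalb, by 0.34 ± 0.07 (limma adjusted p = 0.0136), while Vip was at -0.19, Gad1 at -0.04, Gad2 at -0.02 and Sst at 0.06 without passing, and by limma 0 changed in rat at 6 h (0 at an unadjusted p under 0.05). The part of these cells in the Kcnc2 result was not tested.

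Kcna2, the Kv1.2 gene of axons and nerve terminals, read 9.40, 9.44 and 9.34 after pMCAO in mouse at 6 h and 9.78, 9.75 and 9.70 in shams. It fell by 0.35 ± 0.07 with no overlap (limma adjusted p = 0.0176), and the call was lost without pMCAO animal 3, sham animal 1 or sham animal 2 (adjusted p up to 0.0527). Its rat difference was -0.14 ± 0.09. The other Kv1 genes of axons did not pass. Kcna1 differed by -0.13 in mouse and 0.04 in rat at 6 h, and Kcna4 by -0.10 and -0.15. The 2 mouse clusters of Kcna4 disagreed at 2 h, at -0.09 for the one used and 0.30 for the dimmer one. Rat Kcna4 at 2 h differed by 0.25 ± 0.07 with all occluded animals above all shams, without passing (limma adjusted p = 0.412). Kcna3, the Kv1.3 gene of microglia and T cells, differed by 0.25 ± 0.07 in rat at 6 h with groups apart but missed the threshold (adjusted p = 0.0721), and by 0.10 in mouse.

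Kcnd3, the Kv4.3 gene of the rapidly inactivating A-type current, was the pore gene that rose. In mouse at 6 h it read 7.74, 7.60 and 7.84 after pMCAO and 7.43, 7.53 and 7.17 in shams. The lowest occluded value lay just above the highest sham value, and the rise was 0.35 ± 0.09 (limma adjusted p = 0.0376). It was lost without pMCAO animal 1 or 3 or sham animal 1 or 3, with adjusted p up to 0.112. The other A-type pore genes were on the negative side in mouse at 6 h without passing, Kcnd2 at -0.17 ± 0.06 and Kcnd1 at -0.22 ± 0.08. In rat Kcnd3, Kcnd2 and Kcnd1 differed by 0.13, -0.19 and 0.01. Kcnb2, a delayed rectifier gene, differed by -0.33 ± 0.11 in rat (adjusted p = 0.0936) and by -0.26 ± 0.08 in mouse (adjusted p = 0.0801), neither a call.

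**Figure D2:**
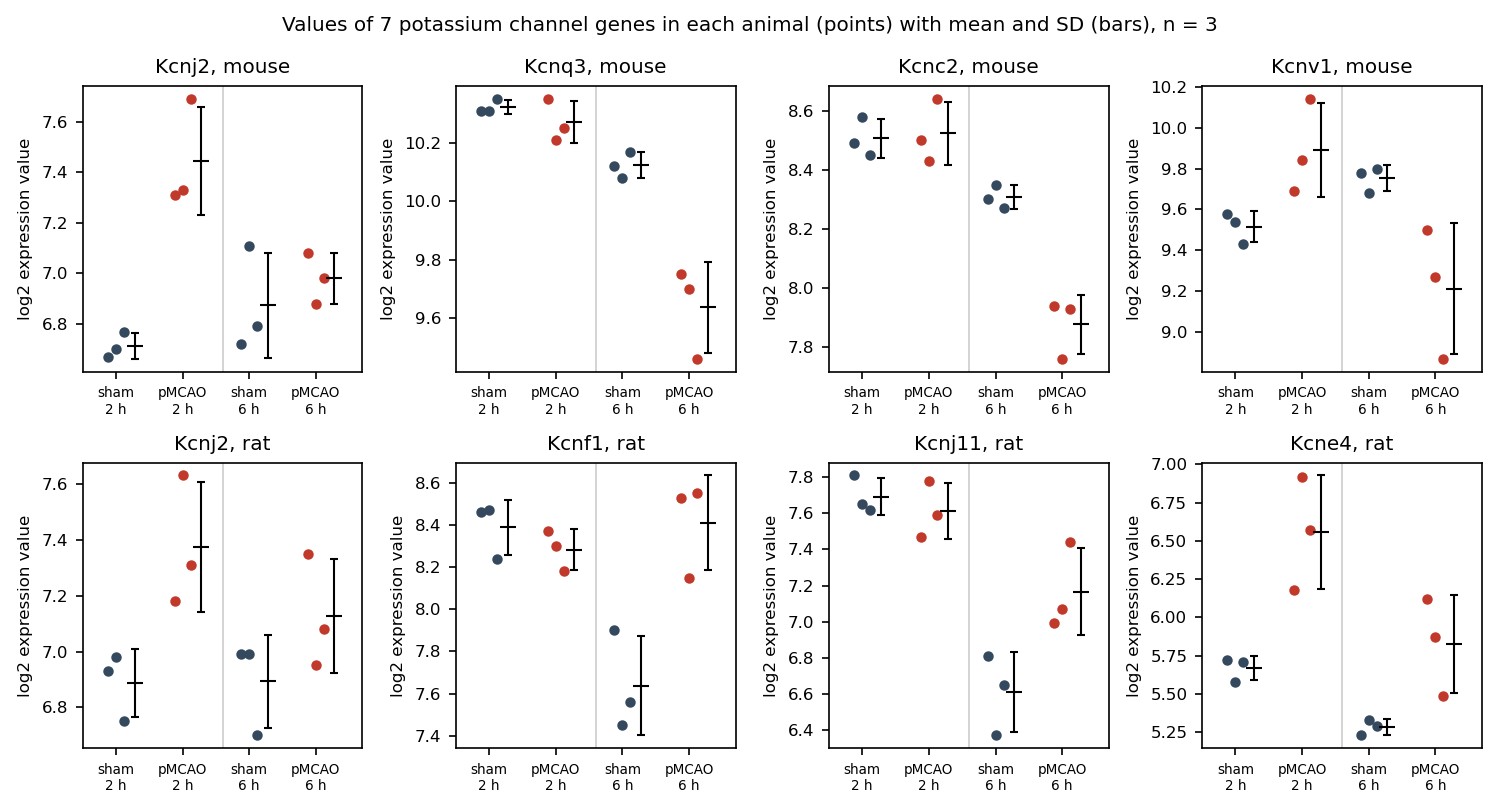
Points are single animals and give the deposited log2 value of a gene in its own panel, with shams and pMCAO animals side by side at each time and bars for the group mean and SD (n = 3). Occluded mice sit below all shams at 6 h for Kcnc2 and Kcnq3, and occluded rats sit above all shams at 6 h for Kcnf1. Heights are comparable within a time and not between times or genes.

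Silent Kv subunits (Kcnf, Kcng, Kcns and Kcnv, 10 genes in each species) alter the gating of pore subunits they join. In rat 1 rose at 6 h, and in mouse 1 fell. Kcnf1, which encodes Kv5.1, read 8.53, 8.15 and 8.55 after pMCAO in rat at 6 h and 7.90, 7.45 and 7.56 in shams. All occluded rats lay above all shams, and the rise of 0.77 ± 0.13, or 1.71-fold, was the largest difference of any member at 6 h in either species (limma adjusted p = 0.00609). It kept its call whichever array was left out and under the 10 other settings tried, with adjusted p from 0.00124 to 0.0473. At 2 h the rat difference was -0.11, and in mouse it was 0.11 at 2 h and 0.03 ± 0.09 at 6 h. The change from 2 h to 6 h in rat was not past the threshold (limma adjusted p = 0.0978).

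Kcnv1, the Kv8.1 gene of cortical neurons, lay on opposite sides of the shams at the 2 times in mouse. At 6 h it read 9.50, 9.27 and 8.87 after pMCAO and 9.78, 9.68 and 9.80 in shams, a fall of 0.54 ± 0.15 with no overlap (limma adjusted p = 0.0459). At 2 h it read 9.69, 9.84 and 10.14 against 9.58, 9.54 and 9.43, all occluded mice above all shams, by 0.37 ± 0.15 without passing (adjusted p = 0.573). The change between the times, -0.91 ± 0.21, did not pass (limma adjusted p = 0.100). The fall at 6 h was lost on omission of any array except pMCAO animal 1 (adjusted p up to 0.129). In rat the differences were 0.24 at 2 h and -0.02 at 6 h. Kcng3, chosen after its values were seen, had pMCAO values above all shams at 6 h in both species, by 0.70 ± 0.23 in rat (adjusted p = 0.0995) and 0.27 ± 0.13 in mouse (adjusted p = 0.228), and passed in neither. Its rat values were 7.61, 7.57 and 8.66 after pMCAO and 7.34, 7.37 and 7.04 in shams, with pMCAO animal 3 far above the other occluded rats.

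The Kcnq genes carry the M-current, a slow brake on repeated firing that acetylcholine releases. Of the 3 measured, 2 fell in mouse at 6 h and limma called 0 in rat (0 at 2 h and 1 at 6 h at an unadjusted p under 0.05). Kcnq3, which encodes Kv7.3, read 9.75, 9.70 and 9.46 after pMCAO and 10.12, 10.08 and 10.17 in sham mice. No occluded value reached the shams, and Kcnq3 fell by 0.49 ± 0.08 (limma adjusted p = 0.00597), the lowest adjusted p of any member, and held whichever array was left out. Kcnq5 (Kv7.5) read 9.87, 9.76 and 9.78 against 9.97, 10.03 and 10.12, a smaller fall of 0.24 ± 0.06 (limma adjusted p = 0.0407). That call was lost without pMCAO animal 2 or 3 or sham animal 2 or 3 (adjusted p up to 0.137), and the dimmer Kcnq5 cluster gave -0.12. Kcnq1, mainly a gene of heart and epithelia, differed by 0.12 ± 0.11. Rat Kcnq3 at 6 h differed by -0.19 ± 0.07 with groups apart (adjusted p = 0.145) and Kcnq5 by -0.06 ± 0.07.

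Of the 8 Kcnh genes, relatives of the cardiac channel hERG, 1 fell in mouse at 6 h and limma called 0 in rat (1 at each time at an unadjusted p under 0.05). Kcnh5 (Kv10.2) read 9.31, 9.45 and 8.91 after pMCAO and 9.82, 9.69 and 9.76 in shams. It fell by 0.53 ± 0.13 with no overlap (limma adjusted p = 0.0282), and the call was lost without pMCAO animal 3 or any sham (adjusted p up to 0.0825). Rat Kcnh5 at 6 h differed by 0.06 ± 0.12, while its closest relative Kcnh1 (Kv10.1) differed by 0.34 ± 0.09 with groups apart and an adjusted p of 0.0543. In mouse Kcnh1 differed by 0.04. Kcnh2, the hERG gene itself, differed by -0.01 in mouse and 0.08 in rat.

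Auxiliary subunits (Kcnab, Kcnip and Kcne, 12 genes in each species) set how many channels reach the membrane and how fast they close. In mouse at 6 h 2 fell and in rat at 6 h 1 fell. Kcnip2 encodes KChIP2, the calcium-binding partner of Kv4 channels. It read 7.57, 7.39 and 7.18 after pMCAO and 8.06, 7.82 and 7.96 in shams of mouse at 6 h. The fall of 0.57 ± 0.10 (limma adjusted p = 0.00953), to 0.675 of the sham level, was the largest of any mouse member and was kept whichever array was left out. Rat Kcnip2 differed by -0.07 ± 0.10. Kcnip4, another Kv4 partner gene, read 10.12, 10.30 and 10.09 after pMCAO and 10.50, 10.58 and 10.51 in sham rats at 6 h. It fell there by 0.36 ± 0.09 with no overlap (limma adjusted p = 0.0436), a call lost without any array except pMCAO animal 2 (adjusted p up to 0.136), and in mouse it differed by -0.11 ± 0.06. The species difference at 6 h (mouse minus rat) passed for neither gene, at -0.50 ± 0.14 (adjusted p = 0.0672) for Kcnip2 and 0.25 ± 0.11 (adjusted p = 0.275) for Kcnip4. Kcnip3, which encodes the transcriptional repressor DREAM as well as a channel partner, differed by -0.01 in mouse and -0.29 ± 0.10 in rat (adjusted p = 0.101).

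Kcnab1, the Kv-beta-1 gene whose product speeds inactivation of Kv1 channels, read 8.07, 7.83 and 8.20 after pMCAO and 8.39, 8.35 and 8.74 in sham mice at 6 h. It fell by 0.46 ± 0.13 (limma adjusted p = 0.0488), and leaving out any array of the comparison ended the call (adjusted p from 0.0506 to 0.159). Kcnab3 was at -0.41 ± 0.12 with an adjusted p of 0.0619 in its brighter cluster and 0.05 in its dimmer one. Kcnab2 differed by -0.05 in mouse and -0.06 in rat.

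Kcne4, an inhibitory single-span subunit of Kv channels, had the largest difference of any member in rat. At 2 h it read 6.18, 6.92 and 6.57 after pMCAO and 5.72, 5.58 and 5.71 in shams, and at 6 h 6.12, 5.87 and 5.49 against 5.23, 5.33 and 5.29. Occluded rats lay above shams at both times, by 0.89 ± 0.17 (limma adjusted p = 0.128) and 0.54 ± 0.17 (limma adjusted p = 0.0865), without passing. At 2 h the difference was 0.70 (adjusted p = 0.399) without the animal that stood apart and 1.07 (adjusted p = 0.0355) without pMCAO animal 1, the range over the 6 omissions being 0.0355 to 0.491. At 6 h it was 0.71 (adjusted p = 0.0372) without pMCAO animal 3. Mouse Kcne4 at 6 h differed by 0.30 ± 0.09 with groups apart (adjusted p = 0.0669). Rat Kcne5 differed by -0.35 ± 0.11 (adjusted p = 0.076), and Kcne2, a choroid plexus gene, by 0.18 ± 0.23 in mouse and -0.03 in rat.

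Two-pore channel genes (Kcnk, 13 in each species), which carry background leak currents, gave 0 calls at either time in either species by limma. At an unadjusted p under 0.05 there were 0 in mouse at 2 h, 2 higher and 1 lower in mouse at 6 h, 1 lower in rat at 2 h and 1 higher in rat at 6 h. Kcnk2, the TREK-1 gene of a channel opened by stretch, acid and lipids, read 7.66, 7.31 and 7.41 after pMCAO and 7.95, 7.55 and 8.05 in sham mice at 6 h. The groups overlapped, and the difference of -0.39 ± 0.12 missed the threshold (limma adjusted p = 0.0716). Its relative Kcnk10 (TREK-2) read 7.02, 6.89 and 7.20 after pMCAO and 6.68, 6.80 and 6.49 in sham rats at 6 h, all occluded animals higher, by 0.38 ± 0.10 (limma adjusted p = 0.0504). At 2 h the same rat gene was at 7.40, 7.37 and 7.32 against 7.74, 7.66 and 7.47, all occluded animals lower, by -0.26 ± 0.10. Astrocytic Kcnk1 differed by 0.10 in mouse and 0.08 in rat at 6 h.

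Channels opened by calcium, sodium or pH and their auxiliary subunits (Kcnma, Kcnmb, Kcnn, Kcnt and Kcnu, 12 genes in mouse and 11 in rat) gave 1 fall in mouse at 6 h and no other call. Kcnt2 encodes Slick, a sodium-activated channel. It read 9.0, 8.80 and 8.61 after pMCAO and 9.12, 9.15 and 9.15 in sham mice at 6 h. It fell by 0.34 ± 0.08 with no overlap (limma adjusted p = 0.0355), lost on omission of any array except pMCAO animal 1 (adjusted p up to 0.100). Its relative Kcnt1 (Slack) differed by -0.10 in mouse and 0.26 ± 0.08 in rat (adjusted p = 0.0879). Kcnma1, the pore of the large-conductance calcium-activated channel, differed by -0.03 ± 0.05 in mouse and -0.02 ± 0.06 in rat at 6 h, with 95% intervals of -0.15 to 0.09 and -0.15 to 0.10. The small-conductance genes did not pass, with Kcnn3 at -0.33 ± 0.14 and Kcnn2 at 0.09 in mouse, and Kcnn4, the intermediate-conductance channel of microglia and endothelium, at 0.01 in each species. Kcnmb2, an auxiliary subunit of the large-conductance channel, differed by -0.36 in rat at 2 h (adjusted p = 0.284) and by 0.00 at 6 h.

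The other Kcn symbols are regulators or RNA genes, 3 in mouse and 1 in rat. Kcnrg, which encodes a suppressor of Kv channel assembly, read 5.81, 5.82 and 5.66 after pMCAO and 6.10, 6.16 and 6.07 in sham rats at 6 h. It fell by 0.35 ± 0.08 with no overlap (limma adjusted p = 0.0284), lost on omission of any array except pMCAO animal 2 (adjusted p up to 0.104). In mouse it lay among the dimmest members and differed by -0.05 ± 0.10. The long RNA Kcnq1ot1 and the antisense symbol Kcnd3os were measured in mouse only and differed by 0.13 ± 0.06 and 0.12 ± 0.09 at 6 h, neither past the threshold.

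**Figure D3:**
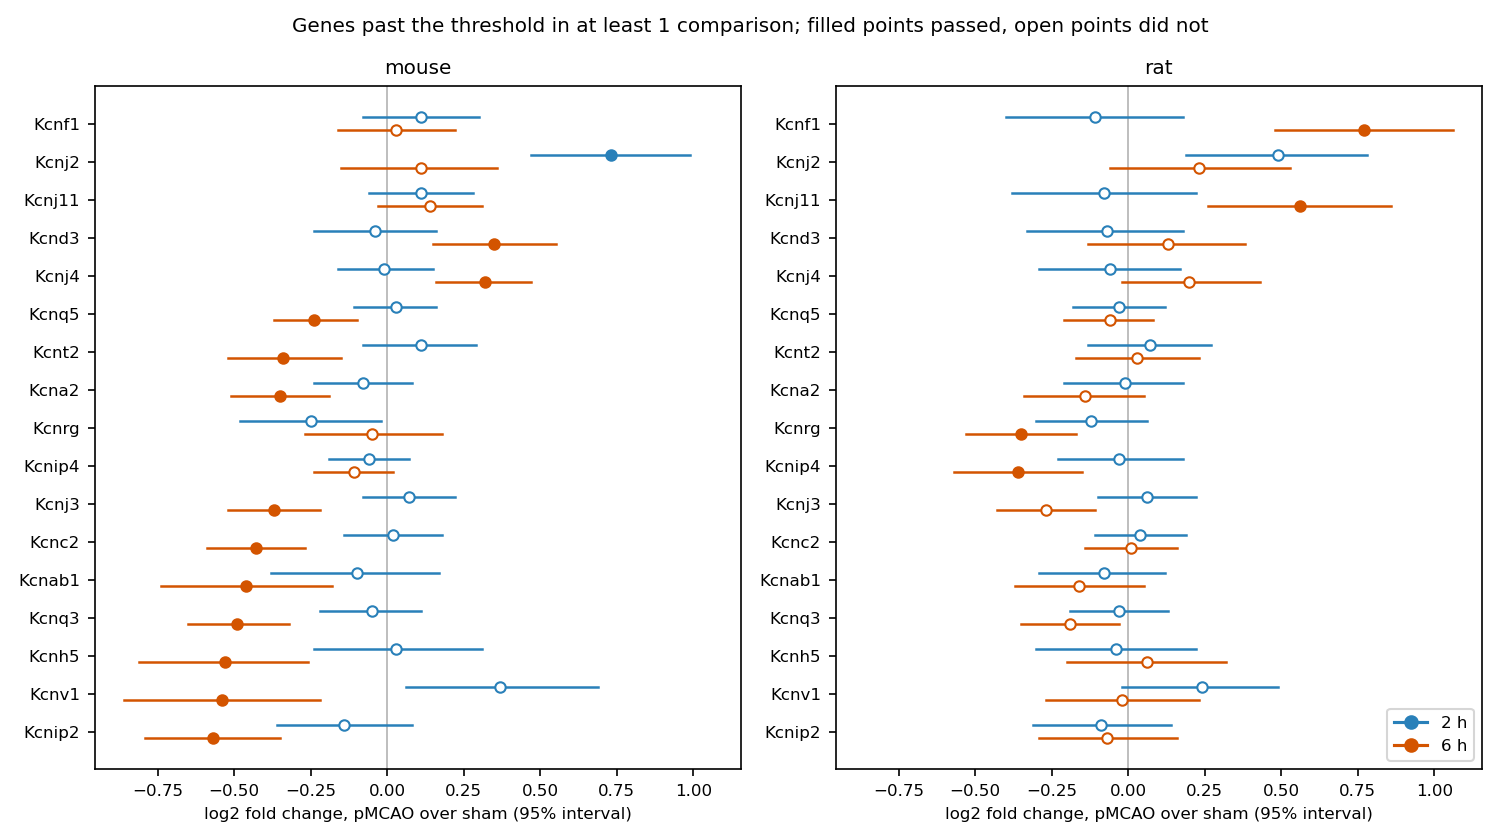
The horizontal axis is the log2 difference between pMCAO and sham with its 95% interval, for each gene that passed in any comparison, at 2 h and 6 h in both species. The intervals of the genes that fell in mouse at 6 h lie below 0, and for Kcnc2, Kcnip2 and Kcnh5 the rat estimates at 6 h lie near 0 (0.01, -0.07 and 0.06).

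Of the genes that work with these channels, 1 passed. The list held 27 partners and potassium transporters, such as sulfonylurea receptors, Kv4 partners, pump subunits and chloride cotransporters, of which 23 were measured in mouse and 22 in rat. In mouse at 6 h limma called 0 higher and 1 lower of 23 measured, a share near the 4.23% of all genes that fell. There 8 had an unadjusted p under 0.05, against 23.3% of all genes. In the other 3 comparisons limma called 0. At an unadjusted p under 0.05 there was 1 in mouse at 2 h (background 7.71%). In rat there were 1 at 2 h (7.08%) and 2 at 6 h (22.1%). List medians were -0.04 and -0.08 in mouse and -0.02 and -0.03 in rat at 2 h and 6 h. The gene that fell was Lrrc55, an auxiliary subunit of the large-conductance channel, by 0.50 ± 0.11 (limma adjusted p = 0.0218), with 7.08 to 7.48 after pMCAO and 7.76 to 7.88 in shams. At 2 h it lay the other way, at 7.85 to 8.15 after pMCAO and 7.56 to 7.74 in shams, a difference of 0.32 ± 0.11 that did not pass (limma adjusted p = 0.481). The pump subunit gene Atp1b1 differed by -0.12 and the chloride exporter gene Slc12a5 by -0.09 in mouse at 6 h. The rat values were -0.04 and 0.03, and none of these passed.

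Whether the response changed between 2 h and 6 h was tested directly. Limma called 0 members for this change in either species, against 0.171% of all genes in mouse and 0.231% in rat, and 17 mouse and 12 rat members had an unadjusted p under 0.05 (background 14.0% and 10.8%). The members with the lowest adjusted p were Kcnj3 in mouse (0.0924) and Kcnf1 in rat (0.0978). Without pMCAO mouse 1 of 6 h 2 mouse members passed, and without pMCAO rat 2 of 6 h 1 rat member did. A call at one time and not at the other is therefore not shown to be a difference between the times for any member.

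Whether mouse and rat differed was tested over 84 shared members by subtracting the rat log2 fold change from that of mouse. At 2 h 0 members passed, against 0.0141% of the 14204 matched genes, and 4 had an unadjusted p under 0.05 (background 3.96%) in this test on the limma fits. At 6 h 2 passed, 2.38% of members against 2.27% of matched genes, and 20 had an unadjusted p under 0.05 against 16.0%. Kcnf1 was lower in mouse than in rat by this measure, at -0.74 (adjusted p = 0.0184), and Kcnc2 at -0.44 (adjusted p = 0.0214). The count was 4 without pMCAO mouse 1 and 0 without sham rat 2. Leaving out sham rat 2 ended both calls (adjusted p of 0.0659 and 0.0562), and leaving out pMCAO rat 1, pMCAO rat 3 or sham rat 3 ended that of Kcnf1 (0.0542, 0.0518 and 0.0531). For Kcnq3, Kcnj3 and Kcnj2 no species difference passed, with Kcnq3 at -0.30 ± 0.11 (adjusted p = 0.143) and Kcnj3 at -0.10 ± 0.10 at 6 h, and Kcnj2 at 0.24 ± 0.18 at 2 h. The species also differed in the side of the occlusion, in surgery and in array design, and these cannot be told apart from species.

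**Figure D4:**
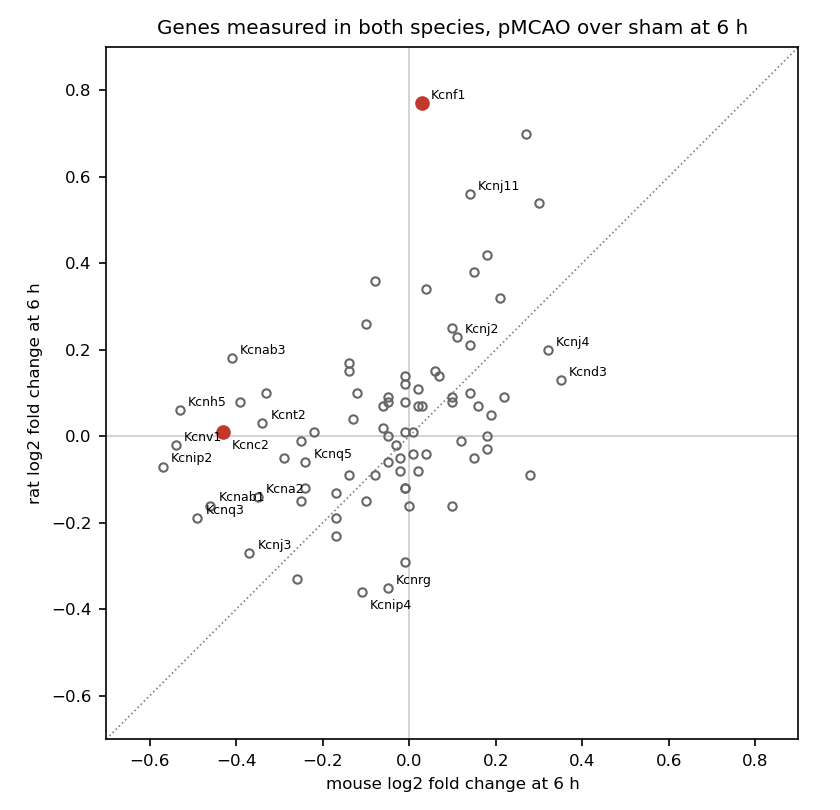
Filled points passed the test of the species difference and the dotted line marks equal values. Each point is 1 of the 84 members measured in both species, with the mouse log2 difference at 6 h on the horizontal axis and the rat one on the vertical axis. Kcnf1 lies at 0.03 in mouse and 0.77 in rat, and Kcnc2 at -0.43 and 0.01, the 2 members whose species difference passed.

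Markers of several cell types differed between the mouse groups at 6 h, beside the falls above. The neuron list had per-animal means of 10.88 to 10.91 after pMCAO and 11.00 to 11.04 in shams, with 1 of 6 genes falling (Stmn2, by 0.22). The cortical excitatory list (5 of 6 measured) stood at 9.13 to 9.24 against 9.44 to 9.46, with 2 falling, Neurod6 by 0.73 and Rorb by 0.57. Its other genes went different ways without passing, with Tbr1 at -0.14, Slc17a7 at 0.00 and Neurod2 at 0.18. For Neurod2 all occluded mice lay above all shams. The striatal projection neuron list (7 of 10 measured) was at 7.32, 7.15 and 7.14 after pMCAO and 8.27, 7.38 and 8.54 in shams, with 2 falling and a median of -0.70. Sham animal 2 thus lay near the occluded animals on this list, and the other shams above it. In rat at 6 h the striatal means were 6.86 to 6.90 after pMCAO and 6.71 to 6.78 in shams, and the cortical means 9.40 to 9.58 against 9.71 to 9.80.

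Of the glial and vascular lists in mouse at 6 h, the microglial and oligodendrocyte means lay apart between the groups, and the astrocyte and vascular means overlapped. Microglial means (5 of 6 measured) were 7.08 to 7.26 after pMCAO and 7.38 to 7.43 in shams, with 2 genes falling, P2ry12 by 0.78 and Csf1r by 0.25. Oligodendrocyte means (5 of 6 measured) were 9.22 to 9.27 against 8.94 to 9.19, where limma called 0 genes and 3 had an unadjusted p under 0.05. Astrocyte means (6 of 6 measured) overlapped, at 9.09 to 9.28 and 8.89 to 9.18, while Gfap, a gene of reactive astrocytes, rose by 0.89 ± 0.19 (limma adjusted p = 0.0194). Endothelial means also overlapped, at 6.83 to 7.26 and 6.82 to 7.12, with a median difference of -0.06. In this list Cdh5 rose by 0.58. Pecam1 at 0.36, Tek at -0.37, Cldn5 at -0.18, Flt1 at -0.11 and Kdr at -0.02 did not pass. Pericyte and smooth muscle means overlapped too, at 7.48 to 7.54 and 7.34 to 7.49, and limma called 0 of these genes (0 at an unadjusted p under 0.05). Choroid plexus means ranged from 6.06 to 7.83 after pMCAO and from 5.88 to 6.72 in shams, and limma called 0 of these genes (0 at an unadjusted p under 0.05). Neutrophil means in mouse at 6 h (6 of 6 measured) were 5.13 to 5.54 after pMCAO and 4.95 to 5.12 in shams. Limma called 0 of these genes, and 3 had an unadjusted p under 0.05. In rat at 6 h microglial means were 7.09 to 7.34 against 7.51 to 7.61, with 2 genes falling. Rat neutrophil means were 5.36 to 5.54 against 4.81 to 4.92, and 2 neutrophil genes rose.

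With the striatal marker mean of each mouse as a covariate, limma called 0 members at 6 h, and 13 had an unadjusted p under 0.05. The shares of all genes in that fit are not given here, so these counts cannot be read as particular to the members. All 12 called members kept their sign. Kcnc2 was -0.48 ± 0.11 with the covariate, Kcna2 -0.38 ± 0.11, Kcnj3 -0.34 ± 0.10 and Kcnv1 -0.53 ± 0.22, sizes near those without it, and Kcnj4 was 0.43 ± 0.09, a larger one. Nearer to 0 with the covariate were Kcnip2, from -0.57 to -0.37 ± 0.13, Kcnq3, from -0.49 to -0.38 ± 0.11, Kcnab1 from -0.46 to -0.23 ± 0.17, and Kcnd3, from 0.35 to 0.20 ± 0.12. Smaller moves toward 0 were those of Kcnh5, from -0.53 to -0.47 ± 0.19, and Kcnq5, from -0.24 to -0.20 ± 0.09, and Kcnt2 was at -0.33 ± 0.13. The covariate differed between the groups, and the errors of all 12 were larger with it. In rat the covariate left Kcnf1 at 0.82 ± 0.15 and it was the only rat member called at 6 h. The part of the other marker lists in these results was not tested.

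**Figure D5:**
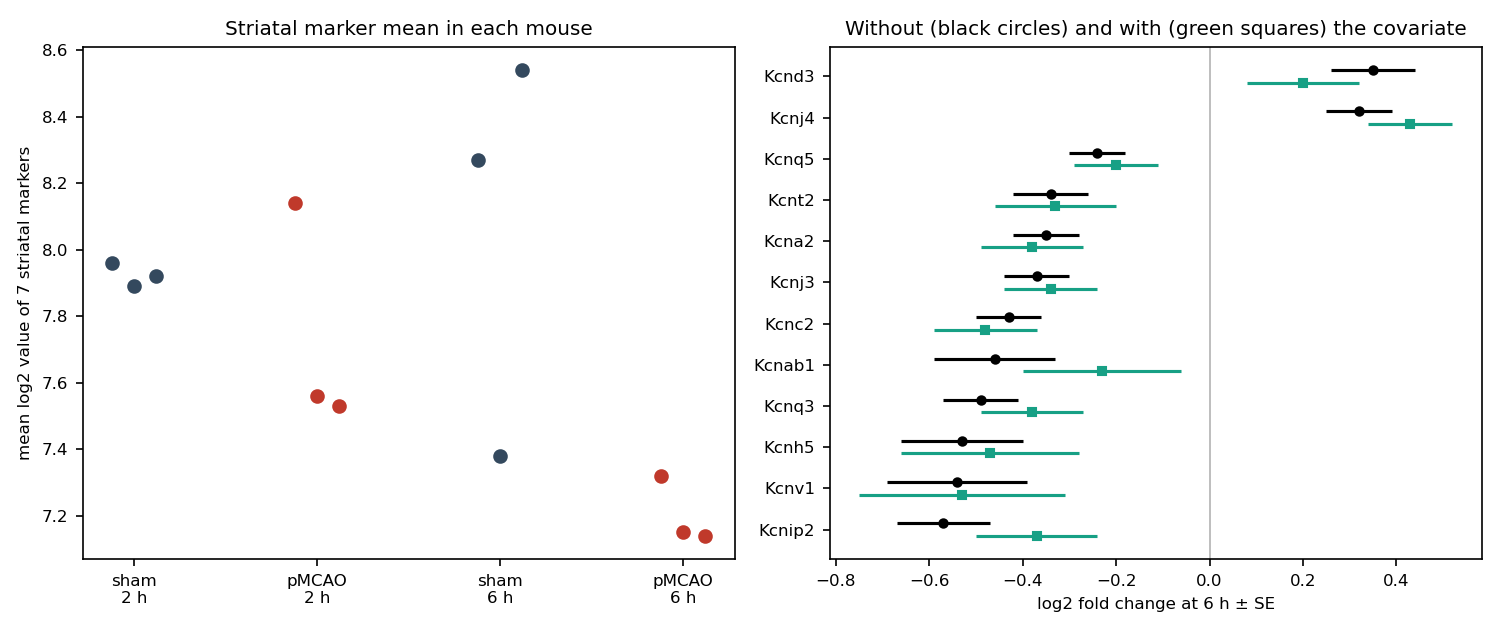
The left panel gives the mean log2 value of the 7 striatal markers in each mouse by group. In the right panel, for each member called in mouse at 6 h, the log2 difference between pMCAO and sham is drawn without (circles) and with (squares) that mean as a covariate, with standard errors. All 12 keep their sign, with Kcnip2, Kcnq3, Kcnab1, Kcnd3, Kcnh5 and Kcnq5 nearer to 0 with the covariate and Kcnj4 further from it.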

How the data were processed

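For each species the authors deposited log2 values in a single table of 12 arrays, rounded to 2 decimals. The submitters' processing notes name oligo and limma without versions. How background was corrected and arrays were normalized was not stated in the sources used. Per the labels' protocols, the RNA integrity number was above 7.5 and labelling used the WT PLUS kit. Groups came from the sample titles, since the characteristic for time says 2 h throughout and contradicts them.

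The tables hold 41345 mouse and 36685 rat transcript clusters, named from the platform annotation. Group means were fitted with limma 3.58.1 (R 4.3.3) over the 12 arrays of a species, leaving 8 residual degrees of freedom, with default eBayes, two-sided, adjusted by Benjamini-Hochberg over all genes tested. With 3 animals against 3, exact permutation cannot give a p below 0.1. The error of a species difference combined the standard errors and degrees of freedom of both limma fits. The scripts were tested on simulated data. The number of arrays limits precision.

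The members, the lists and the naming rule were chosen with earlier results of these data known. Named were members past the threshold, the extremes of a subfamily from 0.3 in size, and a preset list. Members named otherwise were relatives or partners of these, chosen after their values were seen. Alternatives covered scaling, the spread model, array weights, filters, cluster choice, the striatal covariate, the replicate number as a block and leaving out each array. Promoters came from a RefSeq table, and those on chr18 were left out of the search and its counts.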

Additional observations from a re-analysis of the deposited data

Results flagged for a closer look

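The responses of 2 genes differed between mouse and rat at 6 h by the test of the difference. Kcnf1 gave -0.74 (mouse minus rat, log2) and Kcnc2 gave -0.44, and with the striatal covariate both kept their sign, at -0.78 (adjusted p = 0.111) and -0.49 (adjusted p = 0.146), without passing. Over all alternatives the adjusted p ran from 0.00391 to 0.111 for Kcnf1 and from 0.00431 to 0.146 for Kcnc2.

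For another 3 genes every occluded animal lay on one side of the shams at 2 h and on the other at 6 h, a pattern of 2 of 90 mouse members (2.22%, against 1.21% of all genes) and 1 of 87 rat members (1.15%, against 0.776%). The change from 2 h to 6 h was -0.91 for Kcnv1 in mouse (limma adjusted p = 0.100), -0.44 for Kcnt2 in mouse (adjusted p = 0.147) and 0.64 for Kcnk10 in rat (adjusted p = 0.124), so none of these changes passed the test of the difference.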

How the results depend on the processing

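In mouse at 2 h the 1 call became 0 with only the 6 arrays of the comparison, with every cluster tested and with the replicate block, and ranged from 0 to 1 over left-out arrays. The 12 calls in mouse at 6 h became 0 with only 6 arrays (22 at an unadjusted p under 0.05 by limma), 6 with every cluster tested, 4 with the replicate block and 0 with the striatal covariate, and 5 to 11 over left-out arrays. With trend and robust eBayes they numbered 18, under array weights 8, and without the lowest 25% of genes 17. Quantile scaling split them into 2 higher and 8 lower, and median centring into 2 and 7. In rat at 2 h array weights gave 1, and left-out arrays 0 to 1. The 4 calls in rat at 6 h became 1 with only 6 arrays, with array weights, with every cluster tested and with the striatal covariate, 10 with trend and robust eBayes and 9 without the lowest 25% of genes. They ranged from 1 to 8 over left-out arrays (8 without pMCAO animal 2, 1 without sham animal 2). The rat split was 4 higher and 2 lower under quantile scaling and 4 and 1 under median centring. The change over time gave 4 in mouse and 1 in rat with trend and robust eBayes, 1 in mouse without the lowest 25% of genes, and 0 to 2 and 0 to 1 over left-out arrays. The species difference at 6 h gave 7 with trend and robust eBayes and 0 with the striatal covariate, and 0 to 4 over left-out arrays. At 2 h it gave 0 throughout. The shares of all genes under these settings are not given here, so a changed count cannot be read as particular to the members. The causes were not tested. No member named here reversed its direction where it was called. The covariate, the block and the left-out arrays for the species difference were chosen after seeing the data.

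The deviations of same-numbered animals had correlations of -0.12 to 0.33 in the 12 pairs, and those of differently numbered animals -0.21 to 0.2. The highest, 0.33, was between sham rat 2 of 2 h and pMCAO rat 2, the animal that stood apart. The labels do not say that the numbers pair animals, and they were not taken as a pairing. Under the replicate block the rat 6 h count was 3 and the species count 3. The files give no detection calls, so how far dim members lie above background is unknown.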
